A study of Mus musculus with 18 samples.

Results

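The step from 4 h to 1 day after a photothrombotic stroke was measured in 6 of the 18 libraries of the study, 3 lesions punched at 4 h (libraries 2, 3 and 6) and 3 punched at 1 day (libraries 1, 3 and 4). All genes with a level of at least 1 FPKM (fragments per kilobase of transcript, scaled to the library's total) in 3 or more libraries entered the comparison, which left 14016 of the 34921 genes in the table. The mice were 9-week-old male C57BL/6, an inbred laboratory strain. The lesioned mice received the light-sensitive dye rose bengal (100 mg/kg) into the abdomen. After 5 min followed 15 min of green laser light (532 nm, 40 mW, fiber of 2 mm) aimed 2 mm to the right of bregma, where the sutures of the skull meet. The lesion was located by magnetic resonance imaging and punched on a cryostat, and total RNA was sequenced from 3 animals per group. A further group, called sham right here, holds punches of the right side of sham mice. The remaining groups are punches of the left side, called contralateral left here, and lesions at 3 days and 10 days. Replicate numbers 1 and 3 occur in both sham right and contralateral left, and possible shared animals were not modelled. The labels give 1 treatment text for all groups and do not say which of its steps the sham mice received. Sham right serves below as a reference level; like the remaining groups, it enters the step's test only through the shared estimate of spread between libraries. The 4 h and 1 day libraries come from different animals, so each value is a separate lesion and none is followed over time. P-values therefore measure the spread between animals, 3 per group.

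Activation of the dye by light damages the lining of small vessels and clots them, which leaves a focal infarct with sharp borders. In the first hours after such an injury, cells switch on immediate early genes, which encode short-lived transcription factors, and chaperones that refold damaged proteins, and the adrenal stress hormones rise. Over the following day astrocytes around the infarct enlarge and express intermediate filament and acute phase genes, vessels and glia release chemokines, and monocytes enter from the blood. By time after injury alone, 4 h falls in the first of these phases and 1 day in the second. Whether the lesions here followed this course was not tested.

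The 6 libraries were similar in most broad measures. Mitochondrially encoded genes made up 30.8% ± 1.66 of the summed FPKM at 4 h and 28.7% ± 4.32 at 1 day (SD, n = 3 each; exact permutation test, two-sided, p = 0.6, where 3 against 3 cannot go below 0.1), and 12325 to 13004 genes reached 1 FPKM in a library. Neuronal and synaptic genes summed to 2317, 2441 and 2426 FPKM at 4 h and 2565, 2469 and 2454 FPKM at 1 day. The sham right libraries summed to 2147 to 2363 FPKM, below all 3 of the 1 day lesions. Such genes mark brain tissue and do not show whether a punch lay in the lesion. The punches were not alike in markers of neighbouring tissue and blood. Choroid plexus markers summed to 192, 62.0 and 717 FPKM at 4 h and 146, 65.4 and 539 FPKM at 1 day, highest in 4 h library 6 and 1 day library 4. Striatal projection neuron markers summed to 315, 128 and 276 FPKM at 4 h and 102, 97.3 and 189 FPKM at 1 day, and red blood cell genes to 775, 895 and 165 FPKM at 4 h and 234, 292 and 288 FPKM at 1 day. The part of these differences in the results below was not tested, apart from fits without single libraries and without both libraries high in choroid plexus markers. In bulk tissue, fewer cells of a type and less RNA per cell cannot be told apart, here and throughout.

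Genes called higher at 1 day included those of reactive astrocytes, chemokines for monocytes and single interferon-inducible and myeloid genes. Genes called lower included the HSP70 pair, the pentraxin gene Nptx2 and single glucocorticoid-responsive and p53-related genes. Of the 14016 genes, 172 were called (1.23%; limma on log2(FPKM + 1), Benjamini-Hochberg adjusted p under 0.05), of which 119 were higher (0.849%) and 53 lower (0.378%) at 1 day. The median log2 fold change was 0.99 over the genes called higher and -0.86 over those called lower, against 0.03 over all genes tested. In each of the 172 the 3 values of one group lay beyond the 3 of the other. Over all genes tested, 1760 (12.6%) had all 1 day values above all 4 h values and 1095 (7.81%) all below. The separation and the calls rest on the same values, so the separation is no added support for the calls. A change of at least 1 on the log2 scale was reached by 74 genes, 55 higher and 19 lower. Of the genes called higher, 39 had a mean below 1 FPKM at 4 h and 30 reached a mean of at least 10 FPKM at 1 day. The balance of directions depended on the scaling between libraries. It was 97 higher and 87 lower under median of ratios scaling and 91 higher and 100 lower under quantile normalization, and no gene of the 172 changed sign in either. Without 4 h library 6 and 1 day library 4 together, a setting chosen after seeing the data, 18 genes were called (10 higher, 8 lower), 17 of them among the 172.

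**Figure D1:**
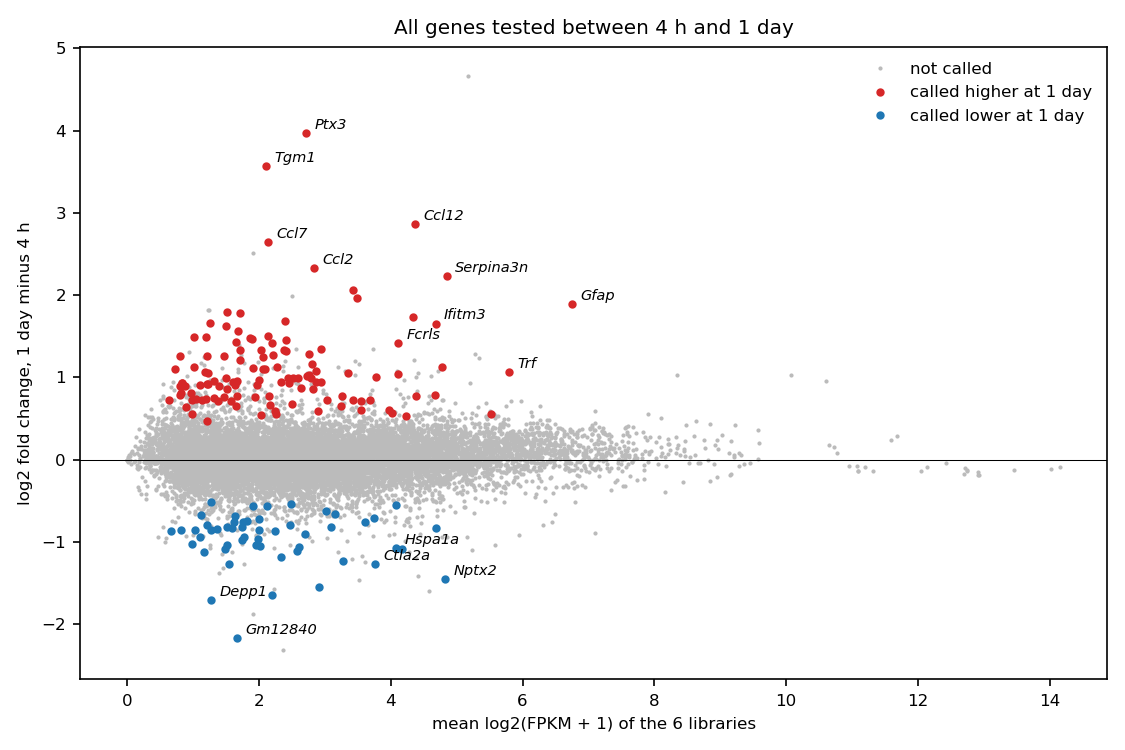
Log2 fold change (1 day minus 4 h) of the 14016 genes tested against their mean log2(FPKM + 1) in the 6 libraries. Red points are the 119 genes called higher and blue points the 53 called lower at 1 day; named genes are labelled, with Ptx3 at 3.97 and Gm12840 at -2.17 as the extremes among called genes.

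Throughout, values are given in the order 4 h libraries 2, 3 and 6 and 1 day libraries 1, 3 and 4. Fold changes are differences of group means of log2(FPKM + 1), so the added 1 shrinks those of genes near or below 1 FPKM. Positions are of build GRCm38 with GENCODE release M21 annotation. The counts and medians of gene lists stand beside 1.23% called and a median of 0.03 over all genes tested. Lost calls are named per gene for fits without 1 library and for another pseudocount, scaling, moderation or a filter of 5 FPKM. They are not named per gene for fits without a filter, with fewer groups or with the replicate number as a block. Of the 172, 95 stayed called without a filter, 95 with the 12 stroke libraries, 51 with only the 2 groups and 9 with the block.

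The largest rise was that of Ptx3 (chr3:66219910-66225805, plus strand), which encodes the long pentraxin 3, a secreted pattern recognition protein of acute inflammation. It measured 1.05, 0.659 and 0.332 FPKM at 4 h and 18.5, 27.8 and 30.1 FPKM at 1 day (log2 fold change 3.97, SE 0.27, adjusted p = 8.92e-07). All 3 lesions at 1 day were far above all 3 at 4 h, whose levels began at the top of the 0.211 to 0.333 FPKM in the sham right libraries. Its log2 fold change from sham right was 0.36 at 4 h (adjusted p = 0.516) and 4.33 at 1 day (adjusted p = 2.41e-07). Next came Tgm1 (chr14:55700009-55713926, minus strand), a transglutaminase that crosslinks proteins, at 0.315, 0.263 and 0.192 FPKM at 4 h and 9.69, 14.8 and 18.7 FPKM at 1 day (log2 fold change 3.57, SE 0.21, adjusted p = 2.25e-07). Its groups were separated in the same way, from levels under 1 FPKM in every 4 h library. Both genes kept their call in each of the 20 alternative fits. In lesions at 3 days Ptx3 measured 1.02 to 3.71 FPKM and Tgm1 16.9 to 27.4 FPKM.

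Reactive astrocyte genes as a list, which holds Ptx3 and Tgm1, had 11 of 15 tested members called higher and none lower, with a median log2 fold change of 1.28. Slc10a6, Cd109, B3gnt5 and Sphk1 did not pass the filter on low values. The most abundant member, Gfap (chr11:102887336-102900912, minus strand), encodes the intermediate filament protein by which astrocytes are stained. Its level was 68.3, 47.5 and 51.0 FPKM at 4 h and 149, 204 and 289.5 FPKM at 1 day (log2 fold change 1.89, SE 0.26, adjusted p = 0.00172). Every lesion at 1 day exceeded every lesion at 4 h by a wide margin, and the 4 h values lay around the 42.7 to 52.99 FPKM in the sham right libraries. The second filament gene, Vim (vimentin), measured 5.94, 5.88 and 6.58 FPKM at 4 h and 9.12, 13.3 and 21.2 FPKM at 1 day (log2 fold change 1.05, SE 0.24, adjusted p = 0.0433). The groups did not overlap, but 1 day library 4 was well above the other two. The call of Vim held without 1 day library 1 and was lost in the other 5 fits without 1 library (adjusted p 0.116 to 0.169); without 1 day library 4 its log2 fold change was 0.76. Vim also lost its call with median of ratios scaling, scaling without mitochondrial genes and quantile normalization (adjusted p 0.0716 to 0.103).

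Among secreted products of reactive astrocytes, Serpina3n (chr12:104406729-104414329, plus strand), an extracellular inhibitor of serine proteases, measured 13.96, 10.49 and 12.7 FPKM at 4 h and 39.2, 67.8 and 87.8 FPKM at 1 day (log2 fold change 2.23, SE 0.29, adjusted p = 0.00123). Lcn2 (chr2:32384633-32388252, minus strand), which encodes the iron-chelator carrier lipocalin 2, measured 3.27, 6.37 and 4.93 FPKM at 4 h and 15.9, 34.2 and 17.4 FPKM at 1 day (log2 fold change 1.96, SE 0.30, adjusted p = 0.00393). The groups of both genes were apart. For Lcn2 the 4 h libraries already stood above the 0.0750 to 0.233 FPKM in the sham right libraries. Its log2 fold change from sham right was 2.32 at 4 h (adjusted p = 0.000756) and 4.27 at 1 day (adjusted p = 8e-07). A2m, the broad protease trap alpha-2-macroglobulin, is on no list and measured 0.698, 0.751 and 0.890 FPKM at 4 h and 3.39, 5.75 and 6.66 FPKM at 1 day (log2 fold change 1.78, SE 0.23, adjusted p = 0.00123). Serpina3n, Lcn2, Gfap and A2m were called in every fit that leaves out 1 library. Timp1, an inhibitor of matrix metalloproteinases, measured 8.39, 7.42 and 0.834 FPKM at 4 h and 14.7, 23.7 and 25.9 FPKM at 1 day (log2 fold change 2.06, SE 0.48, adjusted p = 0.0485). Its low value in 4 h library 6 set it apart from both other 4 h lesions, and without that library the log2 fold change was 1.298. The call of Timp1 held without 4 h library 2 or 4 h library 3 and was lost in the other 4 fits without 1 library (adjusted p 0.0617 to 0.183). Timp1 also lost its call with a pseudocount of 0.1, a pseudocount of 0.5, a filter of 5 FPKM, median of ratios scaling, scaling without mitochondrial genes and quantile normalization (adjusted p 0.0503 to 0.0831). Steap4, a metalloreductase, Tm4sf1, a membrane protein of the tetraspanin type, Cd44, the receptor for hyaluronan, and S1pr3, a receptor for sphingosine 1-phosphate, complete the 11, with log2 fold changes of 1.43, 1.28, 1.26 and 1.12. Steap4, Tm4sf1, Cd44 and S1pr3 fall outside the naming rule and were chosen after their values were seen. Not called were Cp (0.62), Nes (0.48), Aspg (0.03) and Emp1 (-0.58). Without 4 h library 6 and 1 day library 4, 3 reactive astrocyte genes were called (Ptx3, Tgm1 and Serpina3n), with a list median of 1.07.

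Among the genes by which resting astrocytes are recognised 1 of 17 was called, with a median of 0.07. That gene was Aqp4, the water channel of astrocyte endfeet, at 20.4, 16.5 and 18.7 FPKM at 4 h and 28.9, 30.6 and 39.4 FPKM at 1 day (log2 fold change 0.79, SE 0.17, adjusted p = 0.0310). The groups did not overlap. Against sham right the log2 fold change of Aqp4 was -0.96 at 4 h (adjusted p = 0.00670) and -0.17 at 1 day (adjusted p = 0.905). The level at 4 h lay under sham right and the 1 day level did not differ from it by the test. The call of Aqp4 held without 1 day library 1 and was lost in the other 5 fits without 1 library (adjusted p 0.0620 to 0.147), and it held in none of the 3 fits with another scaling. Fabp7, a fatty acid binding protein of immature astrocytes, measured 8.53, 7.82 and 9.52 FPKM at 4 h and 12.2, 17.1 and 15.3 FPKM at 1 day (log2 fold change 0.71, SE 0.31, adjusted p = 0.409). Its groups did not overlap either, and it was not called. Both groups lay below the 30.0 to 36.1 FPKM in the sham right libraries. The log2 fold change of Fabp7 from sham right was -1.85 at 4 h (adjusted p = 0.00411) and -1.14 at 1 day (adjusted p = 0.109).

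Chemokines that draw monocytes rose together. Ccl2, Ccl7 and Ccl12, all ligands of the receptor CCR2, lie in 1 cluster on chromosome 11 (Ccl2 at chr11:82035571-82037453, plus strand, Ccl7 at chr11:82045712-82047525, plus strand, Ccl12 at chr11:82101845-82103400, plus strand), and reads can be split uncertainly among such related genes. Ccl12 measured 10.8, 9.94 and 2.46 FPKM at 4 h and 39.7, 69.0 and 59.3 FPKM at 1 day (log2 fold change 2.86, SE 0.43, adjusted p = 0.00367). Ccl2 measured 3.14, 3.33 and 0.802 FPKM at 4 h and 11.5, 19.2 and 15.1 FPKM at 1 day (log2 fold change 2.33, SE 0.29, adjusted p = 0.00120). For Ccl7 the values were 0.935, 1.04 and 0.371 FPKM at 4 h and 7.12, 11.9 and 11.7 FPKM at 1 day (log2 fold change 2.64, SE 0.33, adjusted p = 0.00120). In all 3 genes the groups were apart, 4 h library 6 was the lowest of the 4 h lesions, and the call held in each fit without 1 library. Ccl2 and Ccl7 were also called without 4 h library 6 and 1 day library 4 together. Ccl2 and Ccl12 already stood above sham right at 4 h, by 1.36 (adjusted p = 0.0225) and 1.87 (adjusted p = 0.0341) on the log2 scale.

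Of the CXC chemokines, Cxcl1, which attracts neutrophils, measured 0.624, 1.77 and 0.466 FPKM at 4 h and 2.83, 6.28 and 5.07 FPKM at 1 day (log2 fold change 1.56, SE 0.25, adjusted p = 0.00424). Cxcl10, an interferon-inducible attractant of T cells, measured 0.347, 0.203 and 0.490 FPKM at 4 h and 1.44, 4.77 and 4.44 FPKM at 1 day (log2 fold change 1.66, SE 0.33, adjusted p = 0.0176). Both genes had groups that did not overlap. The call of Cxcl10 held without 1 day library 1 and was lost in the other 5 fits without 1 library (adjusted p 0.0515 to 0.116); 1 day library 1 was its lowest 1 day value. These 5 were the calls among 14 cytokines and chemokines tested, none of which was called lower (list median 0.29). Cxcl2, Il1rn, Il6, Tnf, Lif and Osm did not pass the filter, and Cx3cl1 was not analysed here. The early macrophage chemokines Ccl3 and Ccl4 went without a call. Ccl3 measured 11.1, 11.8 and 4.39 FPKM at 4 h and 2.92, 6.37 and 3.07 FPKM at 1 day (log2 fold change -0.94, SE 0.39, adjusted p = 0.379). For Ccl4 the values were 5.73, 12.6 and 3.67 FPKM at 4 h and 4.26, 7.08 and 3.24 FPKM at 1 day (log2 fold change -0.42, SE 0.34, adjusted p = 0.804), with groups that overlapped. The log2 fold change from sham right of Ccl3 was 2.86 at 4 h (adjusted p = 0.00134) and 1.91 at 1 day (adjusted p = 0.0209). Il1b, the inflammatory cytokine interleukin 1 beta, was low in all 6 libraries, at 0.623, 1.60 and 0.310 FPKM at 4 h and 0.790, 1.13 and 0.848 FPKM at 1 day (log2 fold change 0.12, SE 0.24, adjusted p = 0.939).

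Interferon-stimulated genes, whose products restrict viruses and which also respond to tissue injury, had 16 of 17 tested members above 0 and a median of 0.69, but 2 calls. In 13 of the 17 the 1 day values all lay above the 4 h values, as they did in 12.6% of all genes tested. The first of the called genes, Ifitm3 (chr7:141009586-141010770, minus strand), encodes a membrane protein that blocks viral entry. It measured 13.98, 15.8 and 11.1 FPKM at 4 h and 39.2, 43.0 and 52.4 FPKM at 1 day (log2 fold change 1.65, SE 0.23, adjusted p = 0.00192), and its 4 h values were within or below the 13.2 to 23.4 FPKM in the sham right libraries. Gbp2, a guanylate-binding protein, measured 1.91, 1.78 and 1.46 FPKM at 4 h and 3.74, 5.89 and 7.20 FPKM at 1 day (log2 fold change 1.25, SE 0.23, adjusted p = 0.00967), again with groups apart. The call of Ifitm3 held in all 6 fits without 1 library. The call of Gbp2 was lost without 4 h library 6, 1 day library 3 or 1 day library 4 (adjusted p 0.0553 to 0.0628). Its 4 h values lay below the 2.07 to 3.60 FPKM in the sham right libraries. The log2 fold change of Gbp2 from sham right was -0.48 at 4 h (adjusted p = 0.302) and 0.77 at 1 day (adjusted p = 0.161). Isg15, a ubiquitin-like modifier, had the largest fold change of the list, 1.99, with values of 2.53, 1.62 and 1.48 FPKM at 4 h and 9.15, 13.2 and 9.09 FPKM at 1 day and no call (adjusted p = 0.0702). Further interferon-inducible GTPase genes were among the 172, chosen after their values were seen: Gbp3 (1.47), Igtp (0.95), Irgm2 (0.92) and Gbp7 (0.90). Summed over the list, the 1 day libraries held 113.4 to 139 FPKM and the sham right libraries 53.3 to 116 FPKM, so 1 of the 3 lesions at 1 day lay within the sham right range and the other two above it.

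Antigen presentation genes followed with all 12 tested members above 0 (11 of 12 under median of ratios scaling, quantile normalization and scaling without mitochondrial genes), a median of 0.42 and 1 call. That was Psmb8, a catalytic subunit of the immunoproteasome, at 0.721, 0.588 and 0.408 FPKM at 4 h and 1.85, 1.94 and 1.99 FPKM at 1 day (log2 fold change 0.90, SE 0.20, adjusted p = 0.0376). The groups did not overlap. The call of Psmb8 was lost in each of the 6 fits without 1 library (adjusted p 0.0784 to 0.165). Psmb8 also lost its call with a filter of 5 FPKM and quantile normalization (adjusted p 0.0544 to 0.0784). Its 4 h values lay below the 1.05 to 1.49 FPKM in the sham right libraries. The log2 fold change of Psmb8 from sham right was -0.57 at 4 h (adjusted p = 0.165) and 0.33 at 1 day (adjusted p = 0.761).

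Genes of blood-derived and resident myeloid cells rose singly. Of 13 monocyte and macrophage markers tested, 2 were called higher and all 13 lay above 0 (12 of 13 under quantile normalization), with a median of 0.74. Fcgr1 (chr3:96282909-96293969, minus strand), the high-affinity receptor for immunoglobulin G, measured 1.07, 1.21 and 1.19 FPKM at 4 h and 4.04, 3.90 and 3.99 FPKM at 1 day (log2 fold change 1.21, SE 0.18, adjusted p = 0.00356). Its values were nearly equal within each group and the call held in every fit without 1 library. Msr1, a scavenger receptor for modified lipoproteins, measured 0.316, 0.211 and 0.0837 FPKM at 4 h and 1.72, 3.34 and 2.24 FPKM at 1 day (log2 fold change 1.49, SE 0.27, adjusted p = 0.00897), with groups apart. The call of Msr1 was lost without 4 h library 6 or 1 day library 3 (adjusted p 0.0502 to 0.0679). Spp1, or osteopontin, measured 12.6, 19.9 and 10.3 FPKM at 4 h and 21.9, 37.7 and 31.3 FPKM at 1 day (log2 fold change 1.05, SE 0.50, adjusted p = 0.496); its groups did not overlap and it was not called. Summed, the monocyte and macrophage list gave 17.4, 26.3 and 14.3 FPKM at 4 h and 36.6, 58.8 and 48.8 FPKM at 1 day, against 14.3 to 23.1 FPKM in sham right.

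Among 12 homeostatic microglia markers, 1 was called: Fcrls (chr3:87250758-87263738, minus strand), an Fc receptor-like gene characteristic of resident microglia, at 11.02, 11.3 and 6.98 FPKM at 4 h and 23.4, 29.5 and 29.5 FPKM at 1 day (log2 fold change 1.42, SE 0.24, adjusted p = 0.00617). All lesions at 1 day stood clear of those at 4 h, and the call held in each fit without 1 library. No other gene of this list was called. P2ry12, the purinergic receptor that guides microglial processes, measured 8.80, 9.33 and 5.36 FPKM at 4 h and 8.02, 5.40 and 4.48 FPKM at 1 day (log2 fold change -0.34, SE 0.40, adjusted p = 0.883). Cx3cr1, the fractalkine receptor, measured 1.39, 0.865 and 3.07 FPKM at 4 h and 5.85, 1.49 and 11.6 FPKM at 1 day (log2 fold change 1.19, SE 0.57, adjusted p = 0.497). The groups of both genes overlapped, and within each group Cx3cr1 was highest in the library with the most choroid plexus transcripts.

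Of 16 activated microglia and complement genes, C4b and Cst7 were called higher (list median 0.44). The complement component C4b measured 1.94, 1.67 and 3.57 FPKM at 4 h and 5.50, 5.93 and 11.7 FPKM at 1 day (log2 fold change 1.33, SE 0.29, adjusted p = 0.0351), and Cst7, which encodes the protease inhibitor cystatin F, 0.216, 0.588 and 0.214 FPKM at 4 h and 0.948, 1.37 and 1.73 FPKM at 1 day (log2 fold change 0.81, SE 0.18, adjusted p = 0.0376). Their groups were apart. The call of C4b held without 4 h library 6 or 1 day library 1 and was lost in the other 4 fits without 1 library (adjusted p 0.0722 to 0.150). C4b also lost its call with scaling without mitochondrial genes (adjusted p = 0.0777). The call of Cst7 held without 4 h library 3 or 1 day library 1 and was lost in the other 4 fits without 1 library (adjusted p 0.146 to 0.163). Cst7 also lost its call with a filter of 5 FPKM, median of ratios scaling, scaling without mitochondrial genes and quantile normalization (adjusted p 0.0601 to 0.0912). Ms4a6d, a membrane protein of macrophages and microglia, measured 1.74, 2.66 and 1.56 FPKM at 4 h and 6.08, 12.9 and 7.61 FPKM at 1 day (log2 fold change 1.68, SE 0.33, adjusted p = 0.0180). Its groups did not overlap, and 1 day library 3 was its highest value. The call of Ms4a6d held without 4 h library 3 or 1 day library 1 and was lost in the other 4 fits without 1 library (adjusted p 0.0513 to 0.121). Neutrophil markers had 4 tested members and no call. S100a8, a calcium-binding protein abundant in neutrophils, measured 1.496, 5.09 and 1.06 FPKM at 4 h and 1.80, 5.61 and 2.39 FPKM at 1 day (log2 fold change 0.33, SE 0.45, adjusted p = 0.904), with overlapping groups. Of 13 lymphocyte markers, Cd4 passed the filter and was not called, and the list summed to at most 2.46 FPKM in these 6 libraries.

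Annexins and cytoskeletal genes of injured cells had 4 of 17 members called higher, 13 with all 1 day values above all 4 h values (12.6% of all genes tested), and a median of 0.67. S100a4, a calcium-binding protein linked to cell motility, measured 1.56, 2.30 and 1.11 FPKM at 4 h and 4.38, 7.80 and 7.54 FPKM at 1 day (log2 fold change 1.502, SE 0.24, adjusted p = 0.00424). Tagln2, which encodes the actin-binding protein transgelin 2, measured 5.01, 4.65 and 3.98 FPKM at 4 h and 8.39, 8.85 and 12.1 FPKM at 1 day (log2 fold change 0.95, SE 0.19, adjusted p = 0.0176), and Anxa2, a membrane-binding annexin, 4.42, 5.05 and 2.58 FPKM at 4 h and 7.30, 8.41 and 10.7 FPKM at 1 day (log2 fold change 0.99, SE 0.22, adjusted p = 0.0378). In these genes the groups did not overlap. The fourth was Tuba1c, an alpha-tubulin gene, at 0.55. Its log2 fold change from sham right was -0.17 at 4 h (adjusted p = 0.533) and 0.39 at 1 day (adjusted p = 0.254). S100a4 kept its call in every fit without 1 library. The call of Tagln2 held without 4 h library 2 or 1 day library 1 and was lost in the other 4 fits without 1 library (adjusted p 0.0569 to 0.0993). The call of Anxa2 held without 4 h library 3 and was lost in the other 5 fits without 1 library (adjusted p 0.0507 to 0.188). Anxa2 also lost its call with median of ratios scaling, scaling without mitochondrial genes and quantile normalization (adjusted p 0.0609 to 0.0699). The call of Tuba1c was lost in each of the 6 fits without 1 library (adjusted p 0.0803 to 0.187). Tuba1c also lost its call with median of ratios scaling, scaling without mitochondrial genes and quantile normalization (adjusted p 0.110 to 0.192). Under the 3 other scalings the list had 2 calls. Mmp3, the protease stromelysin 1, was the only one of 11 metalloproteinases and inhibitors called, at 0.442, 1.503 and 0 FPKM at 4 h and 2.77, 6.67 and 4.18 FPKM at 1 day (log2 fold change 1.79, SE 0.38, adjusted p = 0.0284). Mmp3 was listed at 0 in 4 h library 6, and without that library the log2 fold change was 1.48. The call of Mmp3 held without 4 h library 3 or 1 day library 1 and was lost in the other 4 fits without 1 library (adjusted p 0.0883 to 0.163). Mmp3 also lost its call with quantile normalization (adjusted p = 0.0565).

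Vessel genes were divided. Tek (chr4:94739289-94874976, plus strand), the endothelial receptor for angiopoietins, measured 1.46, 1.19 and 0.813 FPKM at 4 h and 2.63, 2.31 and 2.94 FPKM at 1 day (log2 fold change 0.76, SE 0.16, adjusted p = 0.0305). Vwf, the clotting glycoprotein stored in endothelial cells, measured 0.405, 0.762 and 0.355 FPKM at 4 h and 1.24, 1.13 and 1.63 FPKM at 1 day (log2 fold change 0.63, SE 0.14, adjusted p = 0.0390). Both sets of groups were apart. Against sham right, the log2 fold change of Tek was -1.21 at 4 h (adjusted p = 0.00110) and -0.45 at 1 day (adjusted p = 0.322). Tek and Vwf were the calls among 17 endothelial and barrier genes (median 0.39). The call of Tek held without 4 h library 2 and was lost in the other 5 fits without 1 library (adjusted p 0.0708 to 0.161). Tek also lost its call with scaling without mitochondrial genes (adjusted p = 0.0903). The call of Vwf held without 4 h library 3 and was lost in the other 5 fits without 1 library (adjusted p 0.0860 to 0.178). Vwf also lost its call with scaling without mitochondrial genes (adjusted p = 0.0786). Its 4 h values lay below the 0.856 to 0.952 FPKM in the sham right libraries. The log2 fold change of Vwf from sham right was -0.35 at 4 h (adjusted p = 0.239) and 0.29 at 1 day (adjusted p = 0.614). The tight junction gene Cldn5 measured 19.1, 16.6 and 11.98 FPKM at 4 h and 28.0, 21.6 and 16.4 FPKM at 1 day (log2 fold change 0.44, SE 0.36, adjusted p = 0.808), and Itm2a, a membrane protein enriched in brain endothelium, 18.6, 14.5 and 12.4 FPKM at 4 h and 24.5, 18.3 and 16.0 FPKM at 1 day (log2 fold change 0.35, SE 0.19, adjusted p = 0.613). The groups of both genes overlapped. From sham right the log2 fold change of Itm2a was -1.63 at 4 h (adjusted p = 0.000366) and -1.29 at 1 day (adjusted p = 0.00217). Its lesions at both times lay below the 47.0 to 51.7 FPKM in the sham right libraries. For Cldn5 it was -0.89 at 4 h (adjusted p = 0.230) and -0.45 at 1 day (adjusted p = 0.874). Lower at 1 day than at 4 h was Ctla2a (chr13:60934155-60936625, minus strand), a cysteine protease inhibitor placed among 7 endothelial activation genes, at 18.7, 23.3 and 18.8 FPKM at 4 h and 6.02, 12.3 and 6.21 FPKM at 1 day (log2 fold change -1.27, SE 0.20, adjusted p = 0.00422). The 1 day lesions were lower in each pairing, with library 3 between the others and the 4 h group. The call of Ctla2a held in all 6 fits without 1 library.

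**Figure D2:**
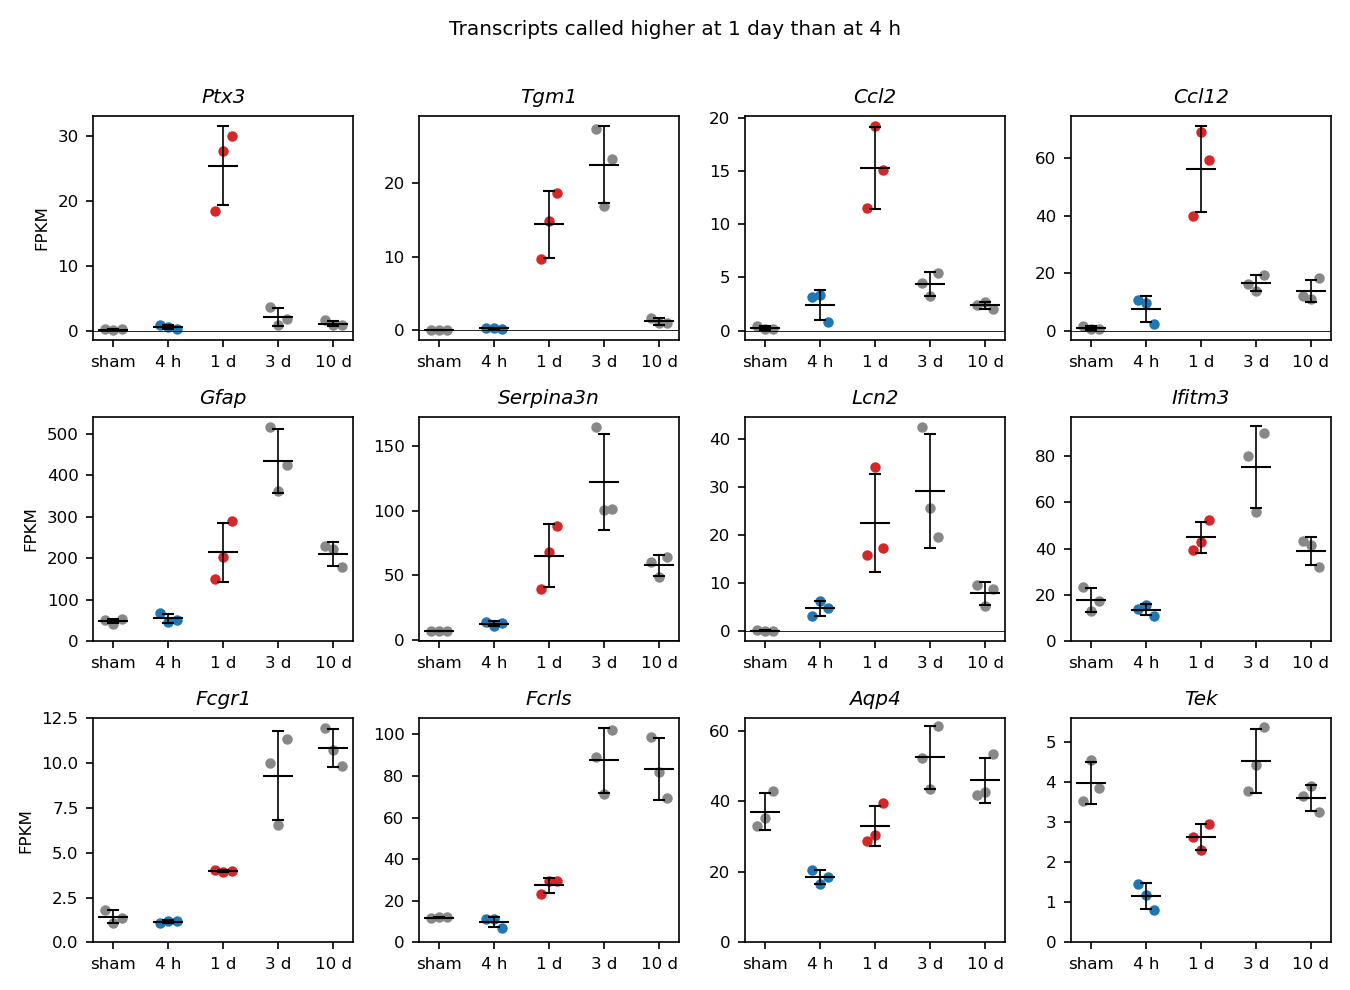
Level (FPKM, linear axes) of 12 genes called higher at 1 day, in sham right and in lesions at 4 h, 1 day, 3 days and 10 days. Each point is 1 library (blue 4 h, red 1 day, grey the others), the horizontal mark is the group mean and the error bar the SD (n = 3); in every panel the 3 red points lie above the 3 blue ones, for Ptx3 between 18.5 and 30.1 FPKM against 0.332 to 1.05 FPKM.

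Among heat shock chaperones, 1 near-identical pair was called lower and 1 gene higher. Hspa1a (chr17:34969190-34972156, minus strand) and its near-identical neighbour Hspa1b (chr17:34956436-34959238, minus strand) encode the stress-inducible HSP70, and their reads cannot be fully told apart. Hspb1 (chr5:135887919-135889563, plus strand) encodes the small heat shock protein HSP27. Their upstream stretches are shown because the 3 genes share a promoter element and moved in different directions. These are the 250 bases before the annotated start from RefSeq (GRCm38.p6), 5′ to 3′ on the gene's strand, at chr17:34972157-34972406, minus strand for Hspa1a, chr17:34959239-34959488, minus strand for Hspa1b and chr5:135887669-135887918, plus strand for Hspb1. Capitals mark matches to GAANNTTC, the letters searched for the heat shock element, which binds heat shock factor 1.
Hspa1a: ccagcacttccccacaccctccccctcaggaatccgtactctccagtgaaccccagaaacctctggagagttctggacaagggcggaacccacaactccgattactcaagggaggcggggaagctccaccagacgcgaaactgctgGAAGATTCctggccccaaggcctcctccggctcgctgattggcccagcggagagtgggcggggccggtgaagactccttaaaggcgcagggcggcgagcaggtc
Hspa1b: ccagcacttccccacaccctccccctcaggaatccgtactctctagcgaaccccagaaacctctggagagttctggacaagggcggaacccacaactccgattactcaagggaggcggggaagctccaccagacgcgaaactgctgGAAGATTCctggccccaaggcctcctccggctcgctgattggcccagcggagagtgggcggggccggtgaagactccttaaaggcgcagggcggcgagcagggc
Hspb1: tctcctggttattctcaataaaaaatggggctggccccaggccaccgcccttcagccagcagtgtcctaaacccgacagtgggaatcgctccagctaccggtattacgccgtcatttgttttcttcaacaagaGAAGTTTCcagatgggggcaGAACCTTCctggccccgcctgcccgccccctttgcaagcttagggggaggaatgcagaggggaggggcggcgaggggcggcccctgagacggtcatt

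The match in Hspa1a and in Hspa1b begins 104 bases before the start, and the windows of this pair differ at 3 of 250 bases. Hspb1 has 2 matches, which begin 117 and 97 bases before the start. Of all 32851 promoter windows, 6.69% hold the motif. Hspa1a measured 23.0, 24.8 and 23.0 FPKM at 4 h and 10.6, 10.07 and 11.4 FPKM at 1 day (log2 fold change -1.07, SE 0.18, adjusted p = 0.00617). For Hspa1b the values were 25.0, 26.3 and 24.4 FPKM at 4 h and 11.7, 9.74 and 12.8 FPKM at 1 day (log2 fold change -1.09, SE 0.19, adjusted p = 0.00851). The 4 h values of both were nearly equal to each other and far above every 1 day value. The 1 day lesions still lay above the 3.43 to 3.73 FPKM in the sham right libraries for Hspa1a, whose log2 fold change from sham right was 2.44 at 4 h (adjusted p = 3.09e-06) and 1.37 at 1 day (adjusted p = 0.000551). Hspb1 went the other way, with 8.32, 10.7 and 7.39 FPKM at 4 h and 15.6, 19.1 and 21.2 FPKM at 1 day (log2 fold change 1.005, SE 0.17, adjusted p = 0.00617). Its 4 h lesions were already above the 4.15 to 4.62 FPKM in the sham right libraries, and all 1 day lesions were higher still. Hspa1a and Hspb1 kept their calls in each fit without 1 library. The call of Hspa1b was lost without 1 day library 3 (adjusted p = 0.0662). The other 12 of 15 heat shock chaperones were not called and lay between 0.06 and 0.64 on the log2 scale (list median 0.34). Hsp25-ps1, a processed pseudogene of Hspb1, was called with 0.997 and may share its reads.

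The remaining stress groups had single risers. Pdia4, a disulfide isomerase of the endoplasmic reticulum, was the call among 17 genes of the unfolded protein and integrated stress response, at 9.52, 11.6 and 12.3 FPKM at 4 h and 20.7, 22.0 and 29.8 FPKM at 1 day (log2 fold change 1.04, SE 0.17, adjusted p = 0.00617). The groups were apart, and the call held in every fit without 1 library. The 4 h values of Pdia4 lay below the 14.9 to 15.0 FPKM in the sham right libraries. Its log2 fold change from sham right was -0.40 at 4 h (adjusted p = 0.258) and 0.64 at 1 day (adjusted p = 0.109). In the antioxidant list Hmox1 and Slc7a11 were called (2 of 15). Hmox1 (chr8:75093621-75100589, plus strand), or heme oxygenase 1, measured 12.5, 15.3 and 5.30 FPKM at 4 h and 25.7, 39.8 and 45.2 FPKM at 1 day (log2 fold change 1.73, SE 0.39, adjusted p = 0.0376). It stood above the 1.81 to 2.51 FPKM in the sham right libraries in all 6 lesions and was lowest in 4 h library 6, which also had the fewest red blood cell transcripts. Without that library its log2 fold change was 1.32. The call of Hmox1 held without 4 h library 3 or 1 day library 1 and was lost in the other 4 fits without 1 library (adjusted p 0.0776 to 0.187). Hmox1 also lost its call with scaling without mitochondrial genes (adjusted p = 0.0568). Slc7a11, the cystine importer for glutathione synthesis, measured 1.71, 2.29 and 1.87 FPKM at 4 h and 3.52, 4.17 and 4.35 FPKM at 1 day (log2 fold change 0.76, SE 0.15, adjusted p = 0.0196), without overlap. The call of Slc7a11 held without 4 h library 3 or 1 day library 1 and was lost in the other 4 fits without 1 library (adjusted p 0.0889 to 0.102). Slc7a11 also lost its call with scaling without mitochondrial genes (adjusted p = 0.0560). The 4 h values of Slc7a11 lay below those of every sham right library, and its 1 day values lay above them. The log2 fold change of Slc7a11 from sham right was -0.52 at 4 h (adjusted p = 0.0894) and 0.24 at 1 day (adjusted p = 0.786). Bcl3, a modulator of NF-kappaB, was the call among 12 genes of that pathway, at 0.388, 0.448 and 0.620 FPKM at 4 h and 1.14, 1.65 and 2.09 FPKM at 1 day (log2 fold change 0.81, SE 0.17, adjusted p = 0.0254). Its groups were apart. The call of Bcl3 held without 1 day library 1 and was lost in the other 5 fits without 1 library (adjusted p 0.0554 to 0.126). Bcl3 also lost its call with a pseudocount of 0.1 (adjusted p = 0.0593).

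Glucocorticoid-responsive genes, which the stress hormones of the adrenal cortex induce, had 2 of 11 tested members called lower and none higher. In all, 10 of the 11 had a log2 fold change below 0 and 1 day values all below the 4 h values (7.81% of all genes tested), and the median was -0.86. Pdk4 (chr6:5483351-5496309, minus strand), a kinase that holds back the use of glucose by pyruvate dehydrogenase, measured 3.90, 4.23 and 5.01 FPKM at 4 h and 1.63, 2.05 and 2.23 FPKM at 1 day (log2 fold change -0.86, SE 0.13, adjusted p = 0.00422). Arrdc2, an arrestin-like gene, measured 9.95, 8.96 and 18.4 FPKM at 4 h and 2.25, 3.26 and 5.15 FPKM at 1 day (log2 fold change -1.55, SE 0.36, adjusted p = 0.0491). The highest 4 h value of both was in library 6, and the 1 day values of Pdk4 lay below the 2.39 to 2.78 FPKM in the sham right libraries. The call of Pdk4 held in all 6 fits without 1 library. The call of Arrdc2 was lost in each of the 6 fits without 1 library (adjusted p 0.0513 to 0.230). Arrdc2 also lost its call with a filter of 5 FPKM and scaling without mitochondrial genes (adjusted p 0.0533 to 0.0837). Fkbp5, the co-chaperone that tempers the glucocorticoid receptor, missed the threshold with 13.4, 17.96 and 23.4 FPKM at 4 h and 6.16, 7.45 and 7.27 FPKM at 1 day (log2 fold change -1.25, SE 0.30, adjusted p = 0.0535). Its 4 h lesions were nevertheless all above its 1 day lesions, and the log2 fold change from sham right was 2.05 at 4 h (adjusted p = 0.00195) and 0.80 at 1 day (adjusted p = 0.356). Plin4, a lipid droplet coat protein, had the largest fold change of the list, -1.57 (adjusted p = 0.0856), without a call. The list summed to 176, 171 and 217 FPKM at 4 h and 92.0, 108 and 111 FPKM at 1 day, against 76.6 to 80.8 FPKM in sham right. The contralateral left libraries summed to 106 to 184 FPKM, which overlaps the 4 h range. In contralateral left libraries 1, 3 and 5, Fkbp5 measured 6.65, 6.17 and 16.3 FPKM and Arrdc2 2.92, 3.77 and 11.8 FPKM. The number of calls in the list was 4 under median of ratios scaling and 0 without 4 h library 6 and 1 day library 4, where the median was -0.84.

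The p53 target and Gadd45 list had 3 of 16 members called lower and none higher (median -0.21). Pmaip1, which encodes the apoptosis-promoting protein NOXA, measured 3.37, 3.70 and 3.22 FPKM at 4 h and 1.89, 1.66 and 1.07 FPKM at 1 day (log2 fold change -0.81, SE 0.14, adjusted p = 0.00726). Trp53inp1, a p53-inducible regulator of stress and autophagy, measured 4.199, 4.78 and 7.57 FPKM at 4 h and 2.67, 2.15 and 2.69 FPKM at 1 day (log2 fold change -0.86, SE 0.19, adjusted p = 0.0376), and Gadd45b, a stress sensor of the MAP kinase pathway, 13.98, 19.1 and 16.1 FPKM at 4 h and 8.41, 10.3 and 9.97 FPKM at 1 day (log2 fold change -0.71, SE 0.17, adjusted p = 0.0496). The groups did not overlap in any of the 3. Pmaip1 was called in every fit without 1 library. The call of Trp53inp1 held without 4 h library 2 and was lost in the other 5 fits without 1 library (adjusted p 0.0713 to 0.176). Trp53inp1 also lost its call with scaling without mitochondrial genes (adjusted p = 0.0996). The call of Gadd45b was lost in each of the 6 fits without 1 library (adjusted p 0.0641 to 0.208). Gadd45b also lost its call with a pseudocount of 0.1, a pseudocount of 0.5, a filter of 5 FPKM, scaling without mitochondrial genes and no trend or robust moderation (adjusted p 0.0512 to 0.0696). Cdkn1a, the cell cycle inhibitor p21, had a larger fold change with more spread, at 25.7, 31.2 and 47.3 FPKM at 4 h and 9.22, 13.05 and 14.3 FPKM at 1 day (log2 fold change -1.41, SE 0.35, adjusted p = 0.0633), and was not called. It was highest in 4 h library 6. In contralateral left libraries 1, 3 and 5 Cdkn1a measured 8.03, 8.29 and 25.1 FPKM.

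Immediate early and activity genes were mixed, with 19 of 26 below 0, 1 called lower, 1 called higher and a median of -0.15. Fosb (chr7:19302696-19310051, minus strand), a partner in the AP-1 transcription factor, measured 1.98, 3.65 and 3.97 FPKM at 4 h and 0.928, 1.01 and 0.843 FPKM at 1 day (log2 fold change -1.09, SE 0.19, adjusted p = 0.00897). All 1 day values were near the 0.873 to 1.09 FPKM in the sham right libraries. The call of Fosb was lost without 4 h library 3 or 4 h library 6 (adjusted p 0.0518 to 0.0604). Ier3, an early response gene that limits cell death, rose, with 9.75, 10.7 and 7.03 FPKM at 4 h and 13.9, 18.2 and 14.7 FPKM at 1 day (log2 fold change 0.72, SE 0.16, adjusted p = 0.0376); its groups were apart. The call of Ier3 held without 4 h library 3 and was lost in the other 5 fits without 1 library (adjusted p 0.0546 to 0.196). Ier3 also lost its call with scaling without mitochondrial genes (adjusted p = 0.0759). Fos itself measured 11.1, 14.7 and 15.5 FPKM at 4 h and 10.8, 8.91 and 11.1 FPKM at 1 day (log2 fold change -0.38, SE 0.27, adjusted p = 0.740), and Arc, an activity-regulated gene of synapses, 36.7, 46.1 and 34.6 FPKM at 4 h and 46.9, 24.5 and 34.7 FPKM at 1 day (log2 fold change -0.18, SE 0.26, adjusted p = 0.912). For Npas4, an activity-dependent transcription factor of neurons, the values were 2.93, 3.58 and 4.77 FPKM at 4 h and 2.56, 1.91 and 3.01 FPKM at 1 day (log2 fold change -0.44, SE 0.29, adjusted p = 0.710). None of these 3 was called, and the groups of each overlapped, those of Fos at about 11.1 FPKM. From sham right the log2 fold change of Fos was -0.11 at 4 h (adjusted p = 0.873) and -0.49 at 1 day (adjusted p = 0.703). That of Npas4 was -0.38 (adjusted p = 0.531) and -0.82 (adjusted p = 0.314). Arc lay below the 70.6 to 91.6 FPKM in the sham right libraries, by -1.06 at 4 h (adjusted p = 0.0439) and -1.24 at 1 day (adjusted p = 0.0241). Nptx2 (chr5:144545902-144557478, plus strand), a secreted neuronal pentraxin induced by activity, is on no list and was the most abundant of the 15 largest falls, at 39.5, 63.0 and 39.1 FPKM at 4 h and 13.5, 15.5 and 20.2 FPKM at 1 day (log2 fold change -1.45, SE 0.27, adjusted p = 0.0119). The 4 h lesions lay clearly above both the 1 day lesions and the 10.6 to 13.8 FPKM in the sham right libraries. The call of Nptx2 was lost without 4 h library 3, 1 day library 1 or 1 day library 3 (adjusted p 0.0562 to 0.0684).

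Other lists gave 1 or no fall. Adm, the vasodilator adrenomedullin, was the call among 16 hypoxia and glycolysis genes, at 3.70, 3.97 and 3.11 FPKM at 4 h and 2.57, 1.54 and 2.24 FPKM at 1 day (log2 fold change -0.57, SE 0.13, adjusted p = 0.0496), and Plaur, the receptor for urokinase, among 10 clotting and fibrinolysis genes, at 2.85, 2.46 and 3.64 FPKM at 4 h and 1.37, 1.37 and 1.63 FPKM at 1 day (log2 fold change -0.69, SE 0.15, adjusted p = 0.0310). Both were higher than sham right at 4 h and at 1 day by the test. The log2 fold change from sham right of Adm was 1.23 at 4 h (adjusted p = 0.000164) and 0.66 at 1 day (adjusted p = 0.0182), and that of Plaur was 1.56 at 4 h (adjusted p = 4.17e-05) and 0.87 at 1 day (adjusted p = 0.00539). The call of Adm held without 1 day library 1 and was lost in the other 5 fits without 1 library (adjusted p 0.0671 to 0.244). Adm also lost its call with a pseudocount of 0.1, a pseudocount of 0.5, scaling without mitochondrial genes and no trend or robust moderation (adjusted p 0.0515 to 0.0847). The call of Plaur held without 4 h library 3 and was lost in the other 5 fits without 1 library (adjusted p 0.0652 to 0.163). Plaur also lost its call with a pseudocount of 0.1 (adjusted p = 0.112). Vegfa, the vascular growth factor, measured 6.83, 8.35 and 9.20 FPKM at 4 h and 7.15, 4.82 and 8.11 FPKM at 1 day (log2 fold change -0.26, SE 0.18, adjusted p = 0.733), with overlapping groups.

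Several of the largest falls belonged to no list. The largest was that of Gm12840 (chr4:117700188-117700923, plus strand), a long intergenic noncoding RNA, at 4.72, 8.18 and 4.79 FPKM at 4 h and 0.253, 0.250 and 1.14 FPKM at 1 day (log2 fold change -2.17, SE 0.39, adjusted p = 0.00928). Depp1 (chr6:116650609-116652794, plus strand), which encodes a regulator of autophagy induced by FOXO factors, measured 3.46, 2.54 and 4.34 FPKM at 4 h and 0.576, 0.159 and 0.329 FPKM at 1 day (log2 fold change -1.71, SE 0.22, adjusted p = 0.00120). Mir670hg (chr2:94160636-94264918, minus strand), a noncoding host transcript of a microRNA, measured 3.78, 4.45 and 2.59 FPKM at 4 h and 0.849, 0.903 and 0.909 FPKM at 1 day (log2 fold change -1.27, SE 0.16, adjusted p = 0.00120). All 3 stood at 1.14 FPKM or lower in every 1 day lesion. The 1 day values of Depp1 overlapped those of sham right, those of Mir670hg lay below them, and Gm12840 in 1 day library 4 lay above them. The call of Gm12840 was lost without 4 h library 3 or 1 day library 3 (adjusted p 0.0544 to 0.0653). Depp1 and Mir670hg, with Htra4 below, were called in each fit without 1 library and also without 4 h library 6 and 1 day library 4.

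Apold1, an endothelial early response gene, measured 4.56, 6.78 and 11.4 FPKM at 4 h and 2.09, 1.45 and 1.34 FPKM at 1 day (log2 fold change -1.64, SE 0.37, adjusted p = 0.0431). Pnpla2, the triglyceride lipase ATGL, measured 7.20, 5.70 and 11.3 FPKM at 4 h and 3.13, 3.03 and 3.45 FPKM at 1 day (log2 fold change -1.06, SE 0.23, adjusted p = 0.0310), and Gdpd5, a glycerophosphodiester phosphodiesterase, 7.16, 6.99 and 9.16 FPKM at 4 h and 2.75, 2.69 and 3.798 FPKM at 1 day (log2 fold change -1.11, SE 0.22, adjusted p = 0.0176). Each had groups that did not overlap and its highest value in 4 h library 6. The call of Apold1 held without 4 h library 2 and was lost in the other 5 fits without 1 library (adjusted p 0.0766 to 0.210). Apold1 also lost its call with a filter of 5 FPKM and scaling without mitochondrial genes (adjusted p 0.0562 to 0.0640). The call of Pnpla2 held without 4 h library 3 and was lost in the other 5 fits without 1 library (adjusted p 0.0784 to 0.161). Pnpla2 also lost its call with scaling without mitochondrial genes (adjusted p = 0.0777). In contralateral left libraries 1, 3 and 5 Pnpla2 measured 4.66, 5.00 and 9.84 FPKM. The call of Gdpd5 held without 4 h library 3 or 1 day library 4 and was lost in the other 4 fits without 1 library (adjusted p 0.0509 to 0.103). Klhl40, a kelch-like gene known from muscle, measured 7.23, 7.08 and 5.68 FPKM at 4 h and 2.33, 2.90 and 1.92 FPKM at 1 day (log2 fold change -1.18, SE 0.20, adjusted p = 0.00617), and Htra4, a serine protease, 2.96, 2.18 and 1.92 FPKM at 4 h and 0.584, 0.304 and 0.726 FPKM at 1 day (log2 fold change -1.12, SE 0.17, adjusted p = 0.00356). The 1 day values of both overlapped those of sham right, and both calls held in all 6 fits without 1 library. Hist1h1c (chr13:23738808-23740367, plus strand), a linker histone gene, followed another course, at 15.5, 13.9 and 12.5 FPKM at 4 h and 5.72, 4.98 and 5.40 FPKM at 1 day (log2 fold change -1.23, SE 0.23, adjusted p = 0.0122). Its 4 h values were near the 14.1 to 17.2 FPKM in the sham right libraries and its 1 day values well below them, with a log2 fold change from sham right of -1.36 at 1 day (adjusted p = 0.00508). At 3 days it measured 22.5 to 29.4 FPKM. The call of Hist1h1c was lost without 4 h library 2 or 1 day library 3 (adjusted p 0.0641 to 0.0708).

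**Figure D3:**
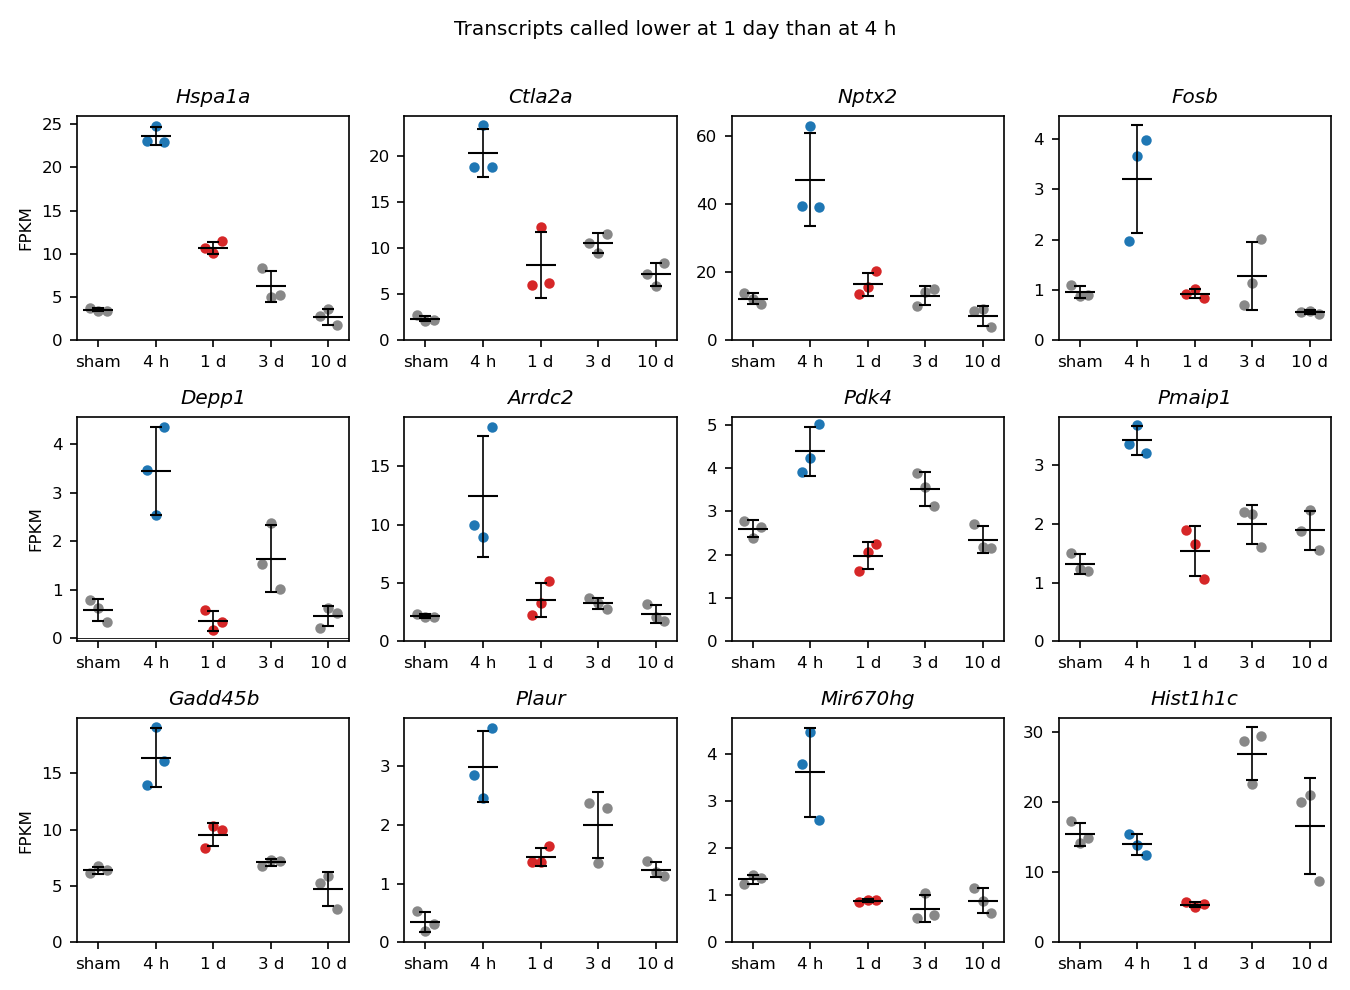
Level (FPKM, linear axes) of 12 genes called lower at 1 day, with points, means and SD bars (n = 3) as in the plot of rising genes. In every panel the 3 red points (1 day) lie below the 3 blue ones (4 h), for Pdk4 between 1.63 and 2.23 FPKM against 3.90 to 5.01 FPKM; in the panels of Pdk4, Mir670hg and Hist1h1c the red points are also below sham right.

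Lists of neurons, oligodendrocytes, dividing cells and the clock held few calls. No call was made among 25 neuronal and synaptic genes (median 0.01; limma, with 1 at an unadjusted p under 0.05), and Snap25, of the synaptic vesicle release machinery, measured 501, 511 and 446 FPKM at 4 h and 500.0, 501 and 413 FPKM at 1 day (log2 fold change -0.05, SE 0.17, adjusted p = 0.969). The summed level of that list was 2317 to 2441 FPKM at 4 h and 2454 to 2565 FPKM at 1 day, against 2147 to 2363 FPKM in sham right. Among 14 myelin genes Trf, the iron carrier transferrin, was called higher, at 41.1, 26.4 and 48.8 FPKM at 4 h and 58.4, 69.3 and 124 FPKM at 1 day (log2 fold change 1.06, SE 0.25, adjusted p = 0.0496). Its groups were apart, and its highest value was in 1 day library 4, which was rich in choroid plexus transcripts. The call of Trf held without 4 h library 6 or 1 day library 1 and was lost in the other 4 fits without 1 library (adjusted p 0.106 to 0.207). Trf also lost its call with a filter of 5 FPKM, scaling without mitochondrial genes and quantile normalization (adjusted p 0.0527 to 0.137). Mbp, the structural myelin basic protein, measured 99.4, 70.6 and 144 FPKM at 4 h and 60.6, 74.3 and 96.1 FPKM at 1 day (log2 fold change -0.40, SE 0.32, adjusted p = 0.799), with overlap. All 12 striatal projection neuron markers lay below 0 (median -0.74), none was called, and 2 had an unadjusted p under 0.05; the median was -0.40 without 4 h library 2, -1.15 without 4 h library 3, -0.48 without 4 h library 6 and -1.05 without 1 day library 4, and 11 of 12 lay below 0 without 4 h library 6 or without 1 day library 1. The 5 red blood cell genes were also all below 0 (median -0.80) without a call, and 1 was called lower without 4 h library 6, the library low in red blood cell transcripts, where the median was -1.57. Of 15 cell cycle genes none was called either, with 3 at an unadjusted p under 0.05, and Mki67, a marker of dividing cells, stayed below 1 FPKM (0.648, 0.312 and 0.510 FPKM at 4 h and 0.195, 0.355 and 0.986 FPKM at 1 day; log2 fold change -0.01, SE 0.31, adjusted p = 0.997). Of 16 circadian clock genes, which bear on the time of day of sampling, none was called and 2 had an unadjusted p under 0.05; Per1 measured 9.78, 9.74 and 14.4 FPKM at 4 h and 7.43, 7.28 and 9.80 FPKM at 1 day (log2 fold change -0.41, SE 0.25, adjusted p = 0.663) and Dbp 18.7, 15.6 and 22.1 FPKM at 4 h and 12.9, 10.9 and 11.5 FPKM at 1 day (log2 fold change -0.62, SE 0.30, adjusted p = 0.508). The 4 h values of Dbp were all above its 1 day values, and those of Per1 overlapped. Other lists without a call by limma were interleukin 6 family signalling (5 of 11 at an unadjusted p under 0.05, a level reached by 1416 of the 14016 genes tested), MAP kinase feedback genes (4 of 12), lysosomal genes (4 of 16) and scar matrix genes (1 of 17), with medians of 0.07, -0.02, 0.13 and 0.02.

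**Figure D4:**
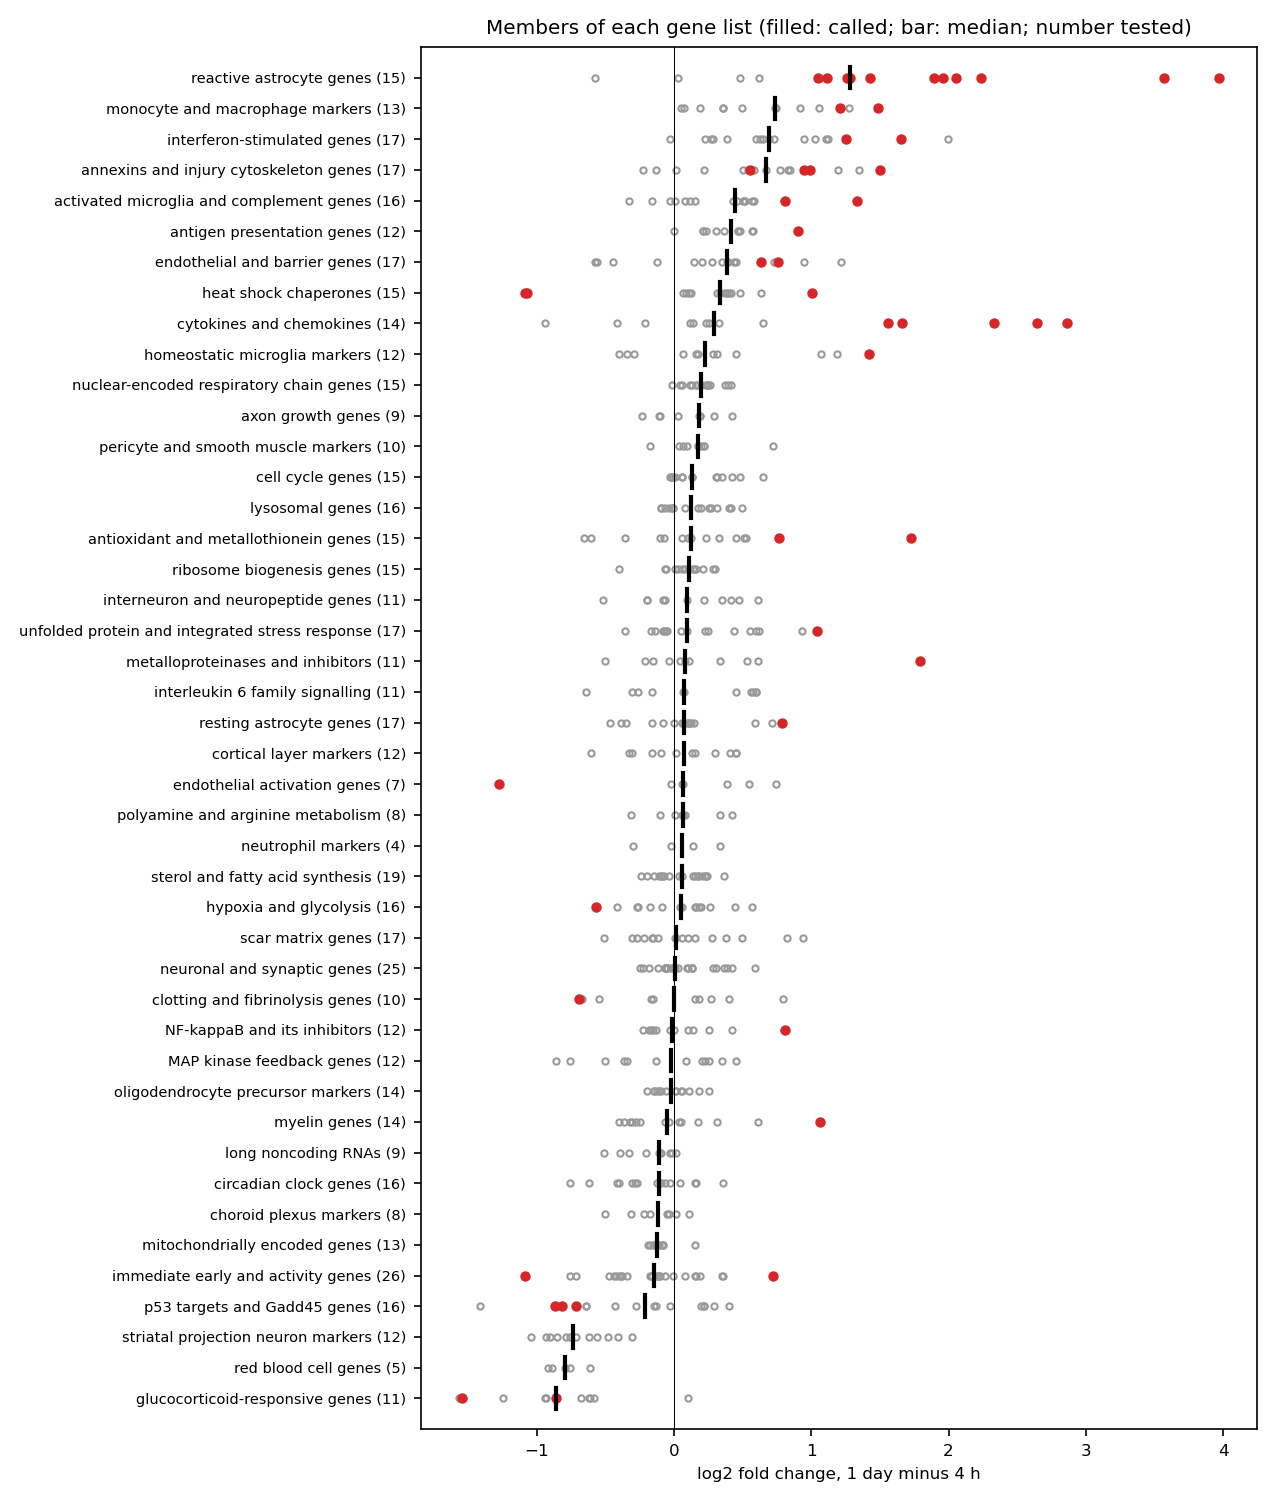
Log2 fold change (1 day minus 4 h) of each tested member of the gene lists with 2 or more tested members, ordered by list median; the number tested is in parentheses. Open grey circles are genes not called, red points called genes and black bars list medians, which run from -0.86 for glucocorticoid-responsive genes to 1.28 for reactive astrocyte genes.

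**Figure D5:**
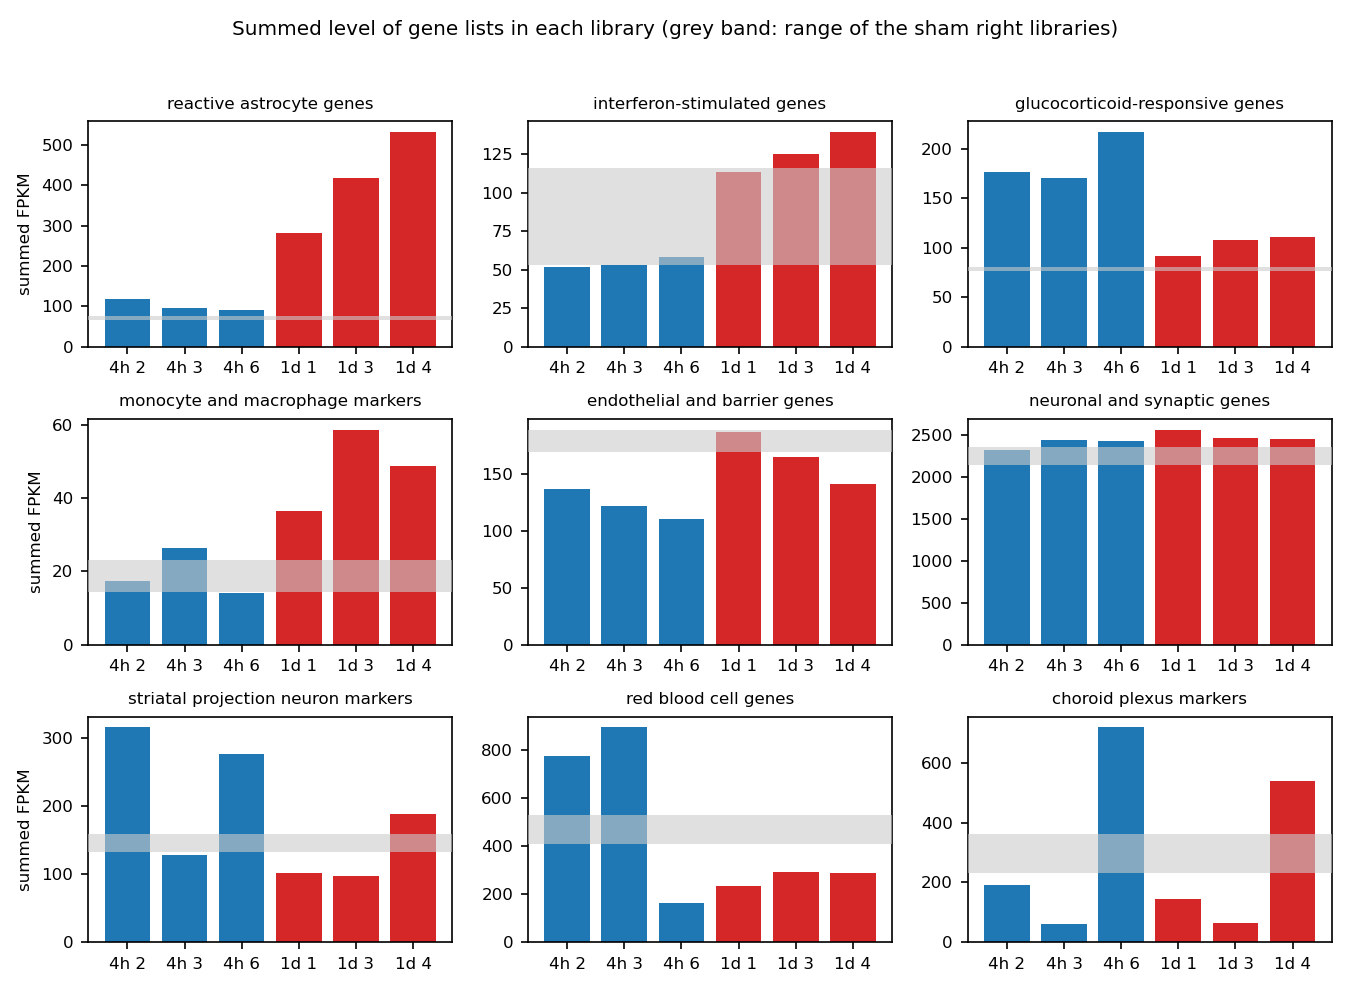
Summed FPKM of 9 gene lists in each 4 h (blue) and 1 day (red) library, with the range of the 3 sham right libraries as a grey band. Reactive astrocyte genes separate the groups (91.2 to 117 against 281 to 532 FPKM), neuronal genes sum to 2317 to 2565 FPKM in all 6, and choroid plexus markers are highest in 4 h library 6 and 1 day library 4.

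Promoter letters were counted over all called genes as a description, and the 250 bases before each start were searched. A RefSeq window was matched by symbol for 92 of the 119 genes called higher and 37 of the 53 called lower. TTCNNNGAA, the core bound by STAT factors downstream of cytokine receptors, occurred in the windows of 13 genes called higher (14.1%) and 4 called lower (10.8%). The share was 8.13% over the 27025 genes with a RefSeq window. That background, used for all motifs here, includes genes not tested in the step, so it is unlike the set the calls came from. Among the 13 were Tgm1, Fcgr1, Psmb8, Slc7a11, Gbp7, Igtp and Irgm2. Tgm1 is shown for the size of its rise. Of its 2 RefSeq starts, the window with most matches lies at chr14:55713493-55713742, minus strand, with matches in capitals that begin 173 and 64 bases before that start.
Tgm1: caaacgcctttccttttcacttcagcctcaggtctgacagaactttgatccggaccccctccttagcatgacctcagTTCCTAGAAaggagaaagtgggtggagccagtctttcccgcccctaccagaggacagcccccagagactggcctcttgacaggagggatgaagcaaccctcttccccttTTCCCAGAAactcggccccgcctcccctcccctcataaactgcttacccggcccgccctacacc

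The AP-1 letters TGANTCA occurred in 9 genes called higher (9.78%), Ifitm3, Gbp2, Cxcl10, Mmp3 and Anxa2 among them. They also occurred in 6 called lower (16.2%), Ctla2a, Plaur, Klhl40 and Mir670hg among them, against 7.82% of all genes with a RefSeq window. GAANNTTC occurred in 5 called higher (5.43%) and 4 called lower (10.8%), against 7.73%. The kappaB-like motif was in 67.4% and 67.6%, against 48.7%, the cAMP response element TGACGTCA in 1 gene and none, and the E-box CACGTG in 6 and 3. Both strands were searched and overlapping matches counted once per gene. A match is a description of these letters, not a site of binding.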

How the data were processed

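The authors deposited 1 FPKM value per gene and library for 18 libraries (6 groups of 3, taken from the titles). StringTie 1.3.4d, HISAT2 2.1.0, Trimmomatic 0.36 and build GRCm38 are named, per the submitters' processing notes; settings, strand handling and annotation are not given in the sources used here. The table ends inside a line after 10485760 bytes, with 34921 complete genes ordered by the q-value that the authors deposited beside a p-value; which groups those compare is not stated, and neither was used. FPKM gives no depth, so no counting intervals are given, and a library with more abundant RNA has lower values elsewhere.

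Of the identifiers, 34797 were matched to GENCODE M21. Genes with at least 1 FPKM in 3 or more libraries (14016) were fitted as log2(FPKM + 1) with limma 3.58.1 (R 4.3.3, trend and robust moderation), 1 mean per group over all 18 libraries, and the 1 day minus 4 h contrast was adjusted by Benjamini-Hochberg. The fit was run on simulated data in which each gene varied independently in each library. Deviations that libraries share across genes were not simulated, so that run does not cover them. Comparisons with sham right come from the same fit and share libraries with the step, so they are given only side by side. The labels state 3 animals per group.

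The step and the 45 gene lists were chosen with earlier results of these data known. Named are the 15 largest rises and falls among called genes whose groups do not overlap and whose higher mean reaches 1 FPKM, the called members of each list (the 3 with the smallest adjusted p where more than 5), and a panel of 35 genes; exceptions are marked. Counts over a list are read against the share of all genes called. Of 664 listed genes, 656 were in the table and 595 were tested. Alternatives changed the pseudocount, filter, scaling, moderation, samples and replicate block, or left out libraries. RefSeq promoter windows (GRCm38.p6) supplied the sequences, and motifs were searched in all called genes, not in the named ones alone as planned. The 2 compared groups share only replicate number 3, so the numbers were not taken to pair them.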

Additional observations from a re-analysis of the deposited data

How the results depend on the processing

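No gene of the 172 changed sign in any alternative fit that included it. Of them, 105 were tested with the filter of 5 FPKM, 169 with the filter on the 6 libraries and all 172 in the other 18. As the groups of all 172 do not overlap, only another scaling or the replicate block could have reversed a sign. The number of calls moved. It was 82 with at least 5 FPKM in 3 libraries, 65 with only the 2 groups fitted, and 109 with the 12 stroke libraries. It was 706 without contralateral left 5 and 10 day 5 (399 higher, 307 lower; all 172 remained), 18 without 4 h library 6 and 1 day library 4 (17 shared), and 70 to 124 with 1 library left out (70 without 1 day library 3, 85 without 4 h library 6, 97 without 1 day library 4, 99 without 4 h library 2, 105 without 4 h library 3). It was 205 with a pseudocount of 0.1, 147 without a filter (74 higher, 73 lower; 95 shared), 184 under median of ratios scaling (140 shared), 125 with scaling without mitochondrial genes and 191 under quantile normalization (135 shared). With the replicate number as a block 13 genes were called (6 higher, 7 lower; 9 shared), but the numbers are not known to pair the samples: the deviations of 4 h library 3 and 1 day library 3 had a correlation of 0.41 across genes, and those of 4 h library 6 and 1 day library 4 one of 0.58. The cause of these shifts was not tested, other than fewer genes or samples where the setting itself removes them.

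Reversed signs concerned genes without a call. With the replicate block the log2 fold change was -0.041 for S100a8, -0.12 for Il1b and 0.047 for Snap25. Over the 6 fits without 1 library it ran from -0.033 (without 1 day library 3) to 0.81 for S100a8, from -0.098 (without 4 h library 6) to 0.40 for Il1b, from -0.22 to 0.14 for Mki67 (above 0 in 4 fits), from -0.11 to 0.045 (without 1 day library 4) for Snap25, from -0.40 to 0.054 (without 1 day library 3) for Arc and from -0.76 to 0.0099 (without 4 h library 3) for Ccl4. Without 4 h library 6 and 1 day library 4 together it was -0.072 for Il1b. The difference in the mitochondrially encoded share of the summed FPKM (1 day minus 4 h) was -2.02 percentage points, and -4.17 (without 1 day library 3) to 0.15 (without 1 day library 4) with 1 library left out.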

Other observations

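Mir7085, a microRNA gene at chr9:44400423-44400488 (plus strand, GRCm38), was too low for the filter but separated the 4 h lesions from every other library. It measured 0.347, 0.270 and 0.313 FPKM at 4 h and 0.00110, 0 and 0 FPKM at 1 day, and at most 0.00217 FPKM in the other 12 libraries. In the fit without a filter its log2 fold change was -0.39. The gene was chosen after its values were seen, and most values behind its spread are at or near 0. For these reasons no p-value is given. FPKM gives no depth, so the number of fragments behind these values on so short a gene is not known. The gene lies inside Slc37a4, a glucose 6-phosphate transporter, on the same strand, and no annotated exon of Slc37a4 overlaps it in GENCODE M21, so reads there cannot be told apart from unspliced host transcript. The RefSeq mature sequences are shown to identify it, with the seed (bases 2 to 8) in capitals.
mmu-miR-7085-5p: cAGUGGGGgcaggccagcagga
mmu-miR-7085-3p: uAGCUGGCcucuccccaccuuc

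Further called genes outside every list, chosen after their values were seen, included transporters and growth factors. Slc14a1, the urea transporter of astrocytes, measured 2.77, 2.33 and 2.03 FPKM at 4 h and 5.67, 8.36 and 8.49 FPKM at 1 day (log2 fold change 1.32, SE 0.17, adjusted p = 0.00120). Slc5a3, the importer of the osmolyte myo-inositol, measured 1.77, 2.31 and 1.93 FPKM at 4 h and 4.84, 5.57 and 8.89 FPKM at 1 day (log2 fold change 1.27, SE 0.17, adjusted p = 0.00123); Mrps6, annotated at an overlapping locus, had a log2 fold change of 1.13, and their reads may be shared. Both transporters were called without 4 h library 6 and 1 day library 4 as well. Tgfa, a ligand of the epidermal growth factor receptor, measured 0.499, 2.18 and 0.877 FPKM at 4 h and 3.45, 3.57 and 6.04 FPKM at 1 day (log2 fold change 1.33, SE 0.23, adjusted p = 0.00759), and Il11, a cytokine of the interleukin 6 family, 0.3599, 0.477 and 0.176 FPKM at 4 h and 1.24, 1.20 and 1.44 FPKM at 1 day (log2 fold change 0.78, SE 0.12, adjusted p = 0.00424). Pdpn, the mucin-like protein podoplanin, measured 4.64, 4.58 and 2.58 FPKM at 4 h and 9.22, 11.7 and 13.4 FPKM at 1 day (log2 fold change 1.35, SE 0.20, adjusted p = 0.00356), and Chil1, a secreted chitinase-like protein of reactive astrocytes, 2.17, 2.07 and 2.56 FPKM at 4 h and 4.48, 6.54 and 7.72 FPKM at 1 day (log2 fold change 1.13, SE 0.18, adjusted p = 0.00424). In each of these genes all 1 day values lay above all 4 h values. Among falls, Trip10, an adaptor of the actin cytoskeleton, measured 4.89, 5.48 and 4.24 FPKM at 4 h and 2.08, 1.66 and 1.74 FPKM at 1 day (log2 fold change -1.05, SE 0.11, adjusted p = 0.000464), and Efna1, a ligand of Eph receptors, 2.68, 5.84 and 5.72 FPKM at 4 h and 1.51, 2.14 and 1.87 FPKM at 1 day (log2 fold change -0.97, SE 0.21, adjusted p = 0.0305), also without overlap. The cell cycle licensing gene Cdt1 measured 1.75, 1.65 and 1.86 FPKM at 4 h and 0.494, 0.499 and 0.556 FPKM at 1 day (log2 fold change -0.86, SE 0.14, adjusted p = 0.00617), while none of the 15 cell cycle genes of the list was called.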
